A study of Mus musculus with 2 samples.

Results

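The Penk Gdf10 mesenchyme of the embryonic mouse cochlea was a set of 419 droplet barcodes among 15813 that passed the quality limits in 2 single-cell RNA libraries. It held 312 of 9373 passing barcodes from Emx2Cre;Ptch1f/f cochleae and 107 of 6440 from WT cochleae. A barcode, which stands for 1 captured cell, was taken as a member when at least 3 of the 6 genes Gdf10, Col8a1, Foxd1, Penk, Eln and Ccn4 had a unique molecular identifier (UMI, 1 counted RNA molecule). A member also had no UMI of the epithelial gene Epcam, fewer than 2 UMIs of Otor, a product of other otic mesenchyme, and fewer than 5 UMIs in sum of the cell-cycle genes Mki67, Top2a and Cenpf. Because these counts chose the members, the levels of the 11 genes are given as a description.

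The cochleae were taken at E16.5, and 8 of them were pooled in each library, on a mixed 129/SvEv and C57BL/6N background in both. The mutant carried a Cre recombinase at Emx2 and floxed alleles of Ptch1, whose product binds Hedgehog ligands and restrains the pathway when none is bound. There was 1 library per genotype, so no comparison was tested, and differences between embryos, dissections, library kits and genotypes cannot be told apart. The intervals given below are exact 95% intervals and cover counting error only. Emx2, whose locus drives the Cre, had 1 UMI in the mutant members and 0 in the WT members, a level that allows up to 3 UMIs. Whether these cells or their ancestors had recombined was not tested.

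The mesenchyme around the cochlear duct derives largely from cranial mesoderm and neural crest, and it gives rise to the fibrocytes of the lateral wall, the lining of the fluid spaces and the cartilage and bone of the otic capsule. Fibroblast-like mesenchyme lays down collagens and elastic fibres, and it sends and receives BMP, TGF-beta, WNT and IGF signals. Penk encodes the precursor of the enkephalins, opioid peptides best known from neurons, and Gdf10 encodes a secreted ligand of the TGF-beta superfamily.

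Members had a median of 7141.5 UMIs and 2760 genes in the mutant library, against 6281 UMIs and 2490 genes in the WT library. The mitochondrial share had a median of 3.59% in mutant members and 2.08% in WT members. The comparison class, called other mesenchyme here, comprised 3016 mutant and 2167 WT barcodes with at least 3 of the 6 general mesenchyme genes Pou3f4, Twist1, Pdgfra, Prrx1, Tbx18 and Col1a2 and fewer than 3 of the 6 rule genes, under the same limits on Epcam and cell-cycle UMIs. Its median depth was 8767 UMIs in the mutant library and 6677 in the WT library, and its median mitochondrial share was 4.65% and 2.57% in the same order. The deposited libraries held 12326 mutant and 6500 WT barcodes with 100135532 and 61130806 UMIs. They shared 25 barcode sequences, 1 of them a mutant member's, and no barcode was a member in both.

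Members made up 3.33% of passing barcodes in the mutant library (interval 2.97 to 3.71%) and 1.66% in the WT library (1.36 to 2.0%). Of members plus other mesenchyme, members were 9.38% of 3328 mutant barcodes (8.41 to 10.4%) and 4.71% of 2274 WT barcodes (3.87 to 5.66%). These totals leave out 558 mutant and 366 WT barcodes that met the rule except for having 2 or more Otor UMIs. Such barcodes are in neither class. The shares of passing barcodes were closer when the limit on Otor was dropped, with 870 mutant barcodes at 9.28% (8.70 to 9.89%) and 473 WT barcodes at 7.34% (6.72 to 8.01%). Of these, 35.9% in the mutant library and 22.6% in the WT library had fewer than 2 Otor UMIs. Otor was also present in cells that should lack it. Macrophages, with a median depth of 9525 UMIs in the mutant library and 9348 in the WT library, had an Otor UMI in 47.4% and 73.5% of barcodes, at 235 and 929 CPM, where CPM is the UMIs of a gene per 1000000 UMIs of the class and library. The part that free Otor RNA played in the difference between the shares was not tested.

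**Figure D1:**
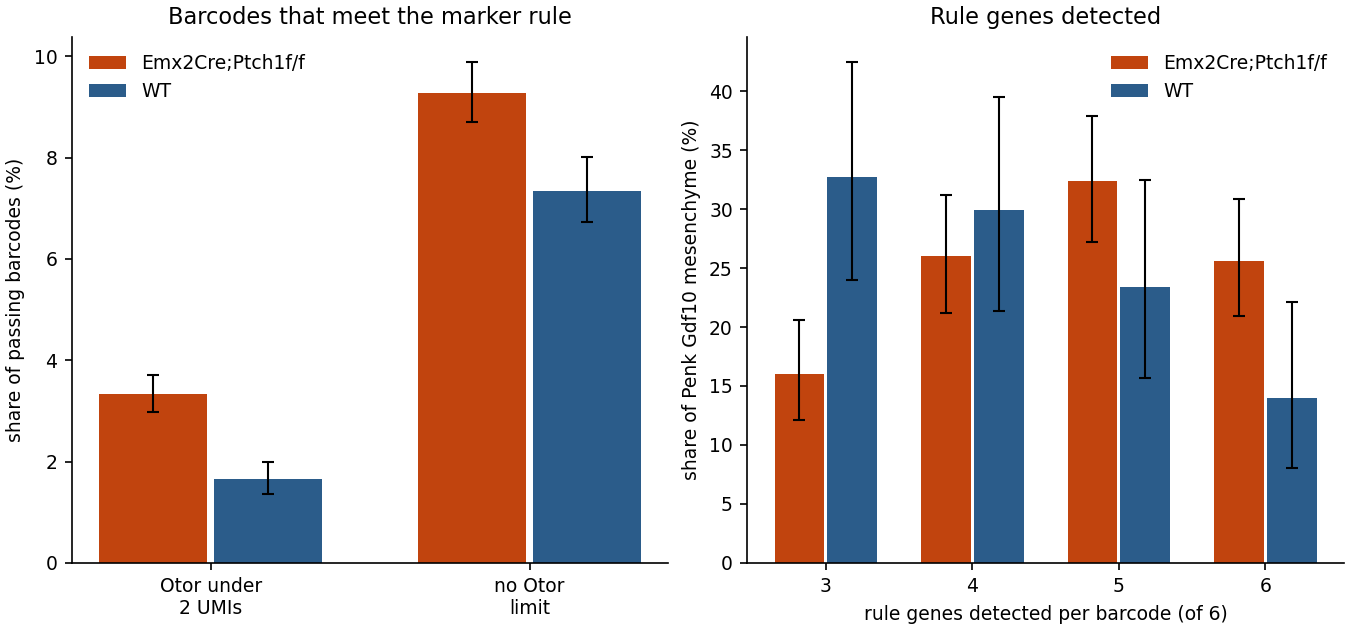
Left, barcodes that met the rule with and without its Otor limit, as a percent of passing barcodes; right, the percent of members with 3 to 6 rule genes detected. Bars are the Emx2Cre;Ptch1f/f and WT libraries, and error bars are exact 95% intervals. The mutant share was 3.33% against 1.66% in WT with the Otor limit, and 9.28% against 7.34% without it.

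Mutant members more often carried many of the 6 genes. All 6 were detected in 80 of 312 mutant members (25.6%) and 15 of 107 WT members (14.0%), while 50 mutant members (16.0%) and 35 WT members (32.7%) lay at the minimum of 3. These counts include Penk, which was detected in 74.7% of mutant and 46.7% of WT members. With Penk left out, 292 mutant and 92 WT barcodes had at least 3 of the other 5 genes under the same limits. Of these, 96 mutant and 29 WT barcodes had all 5, and 78 and 29 had 3. Macrophages had a UMI of Gdf10 in 4.12% of mutant and 14.3% of WT barcodes, and of Foxd1 in the same shares. For Ccn4 these shares were 2.06% and 12.2%, for Col8a1 1.03% and 6.63%, and for Eln 6.19% and 9.69%. The part that free RNA of these genes played in reaching 3 of them, or 3 of the other 5 below, was not tested. Just outside that minimum, 117 mutant and 58 WT barcodes met every other limit with 2 of the 6 genes. At the Otor limit, 116 mutant and 54 WT members had 1 UMI, and 79 mutant and 28 WT barcodes that met every other limit had 2. The limit on dividing cells removed 16 of 328 mutant barcodes (4.88%) and 5 of 112 WT barcodes (4.46%). At least 3 of the 6 general mesenchyme genes were detected in 282 of 312 mutant and 98 of 107 WT members, none of which the rule used. A UMI of Xist was present in 52.2% of mutant and 52.3% of WT members, and a UMI of a Y-linked gene in 40.4% and 33.6%.

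Gdf10 lies on chromosome 14 (33923587 to 33937983, plus strand, GRCm38). It was detected in 89.4% of mutant and 90.7% of WT members at 526 and 446 CPM, the most widely detected of the 6 genes in both libraries. Foxd1, a forkhead transcription factor, was also at similar levels, 338 CPM in the mutant and 369 CPM in WT members. Eln, the gene of tropoelastin, had 745 CPM in mutant and 438 CPM in WT members, and Ccn4, a matricellular protein gene first described as a WNT target, had 322 and 242 CPM. Col8a1, a short-chain collagen of basement membranes, stood at 636 CPM in mutant members, against 315 CPM in WT members.

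Penk (chromosome 4, 4133531 to 4138819, minus strand, GRCm38) differed most of the 6 genes between the libraries. Mutant members had 804 CPM (768 to 842) with 233 barcodes detected, and WT members had 225 CPM (192 to 261) with 50 barcodes detected. Since Penk helped to choose these barcodes, its level was also taken in barcodes chosen by any 3 of the other 5 genes under the same limits. In these 292 mutant and 92 WT barcodes Penk stood at 816 CPM (779 to 855) and 207 CPM (173 to 245), a log2 ratio of 1.97. It was detected in 72.9% of the mutant barcodes (67.5 to 78.0%), with a median of 6 UMIs where present, and in 38.0% of the WT barcodes (28.1 to 48.8%), with a median of 2 UMIs. After each barcode was thinned to 2000 UMIs the detected shares were 58.8% of 289 mutant and 23.9% of 92 WT barcodes. Macrophages had a Penk UMI in 4.64% of mutant and 2.04% of WT barcodes, and other mesenchyme stood at 6.87 and 2.91 CPM.

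Under the Otor limit, the Penk difference was of similar size in barcodes with 3, 4 and 5 of the other 5 genes. It was small with 2, where Penk stood at 86.7 CPM in the mutant and 72.7 CPM in WT barcodes, a log2 ratio of 0.25. With 1 and 0 of them the log2 ratio was 1.04 and 1.74, the latter from 38 mutant and 3 WT UMIs. With 3 of them detected Penk stood at 516 CPM in the mutant and 132 CPM in WT barcodes, with 4 at 889.8 and 213 CPM, and with all 5 at 945 and 263 CPM. It was also present outside the Otor limit. In barcodes with 2 or more Otor UMIs and at least 3 of the other 5 genes, Penk had 366 CPM (349 to 384) in 491 mutant barcodes and 91.5 CPM (80.8 to 103) in 344 WT barcodes, a log2 ratio of 1.99. At that Otor level and with 2 of the other 5 genes, Penk had 76.7 CPM in the mutant and 12.2 CPM in WT barcodes, a log2 ratio of 2.56. With 1 and 0 of them the ratio there was 1.00 and 0.54. Col8a1 behaved otherwise: chosen by the other 5 it had 617 CPM in mutant and 299 CPM in WT barcodes, but with 2 or more Otor UMIs it had 139 and 119.6 CPM. Gdf10 chosen by the other 5 had 549 CPM in mutant and 466 CPM in WT barcodes.

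**Figure D2:**
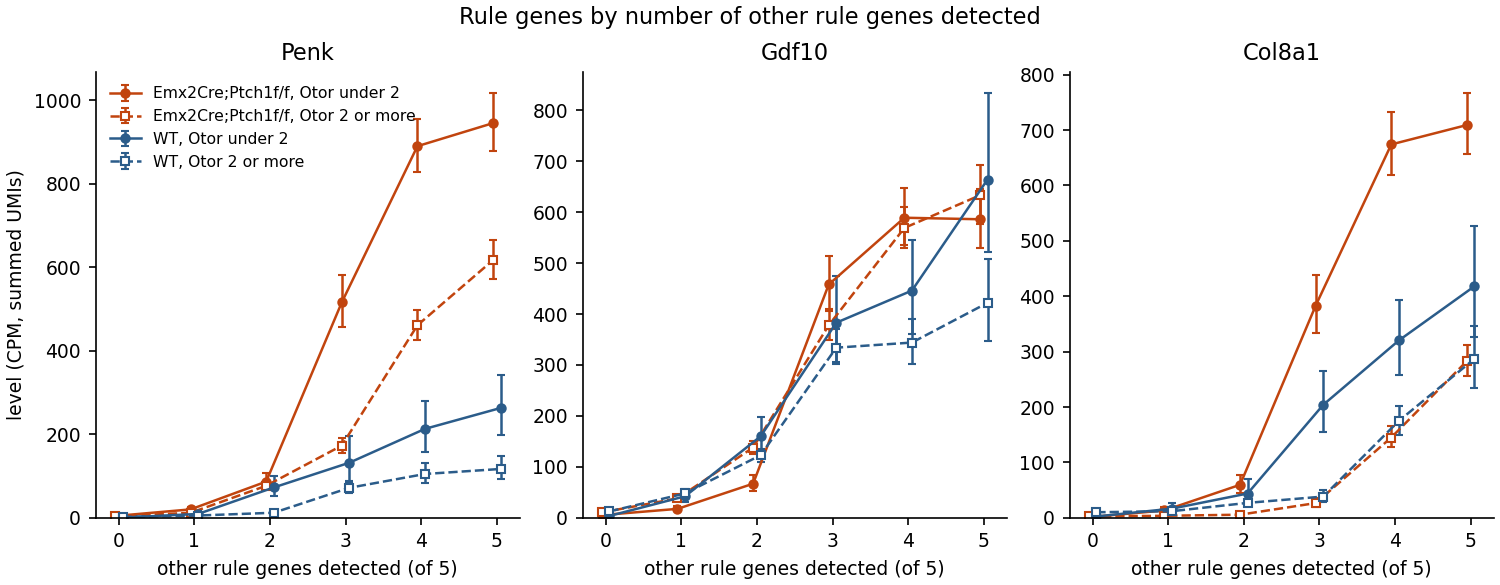
Levels (CPM) of Penk, Gdf10 and Col8a1 in barcodes grouped by how many of the other 5 rule genes were detected, for the Emx2Cre;Ptch1f/f and WT libraries, with solid lines for barcodes with under 2 Otor UMIs, dashed lines for 2 or more, and exact 95% intervals as bars. With 3 or more of the others, Penk was higher in the mutant under both Otor classes, for example 945 CPM in the mutant against 263 CPM in WT with all 5 others and low Otor.

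Of 10133 genes measured in both libraries, 252 (2.49%) were at least 2-fold higher in members in both libraries, and 265 (2.62%) were at least 2-fold lower in both. Fst encodes follistatin, which binds activins and some BMPs, and had 234 CPM in mutant members and 404 CPM in WT members, against 6.30 and 20.3 CPM in other mesenchyme of the same libraries. Igfbp5, an insulin-like growth factor binding protein, was by far the most abundant of the 15 named genes at 6367 CPM in mutant and 4504 CPM in WT members, against 547 and 454 CPM. Igf1 itself had 334 and 356 CPM in members, against 19.2 and 41.2 CPM in other mesenchyme. Rspo3, a secreted enhancer of WNT signalling, had 112 and 92.6 CPM, against 2.65 and 8.74 CPM. Angpt1, a ligand of the endothelial receptor TIE2, had 247 and 214 CPM, against 11.7 and 19 CPM.

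Mgp, an inhibitor of calcification, had 1537 CPM in mutant and 2076 CPM in WT members, against 176 and 282 CPM in other mesenchyme. Smoc1, a matricellular antagonist of BMP signalling, had 146 and 83.4 CPM in members, against 3.51 and 4.71 CPM. Thbs2, a thrombospondin, had 102 and 74.1 CPM, against 3.65 and 9.24 CPM. Cemip, which takes part in hyaluronan breakdown, had 155 and 138 CPM, against 9.91 and 13.0 CPM. Nppc, the precursor of C-type natriuretic peptide, had 51.8 CPM in mutant and 116 CPM in WT members, against 6.01 and 9.30 CPM. Prss35, Parm1, St6galnac5, Fxyd5 and Hs3st3b1 completed the 15, at 58.2 to 221 CPM in members and 3.15 to 19.1 CPM in other mesenchyme. Fst was also found in epithelium, at 193 CPM in the mutant and 133 CPM in the WT library, and Igf1 had 86.2 and 279.6 CPM in epithelium and 169 and 249.6 CPM in macrophages. Fxyd5 had 129.8 CPM in mutant and 68.8 CPM in WT members, against 237 and 109 CPM in macrophages. Gal, the precursor of the neuropeptide galanin, was picked after its values were seen: it had 125 and 83.4 CPM in members, from 68 mutant and 16 WT barcodes.

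Genes of other otic mesenchyme were the lowest in members. Coch, the cochlin gene of fibrocytes, had 1.74 CPM in mutant and 2.65 CPM in WT members, against 155 and 333 CPM in other mesenchyme. Car2, a carbonic anhydrase, had 21.3 and 18.5 CPM, against 381 and 153 CPM. Nkx6-1, a homeobox factor, had 11.3 and 5.29 CPM, against 73.0 and 72.3 CPM. Cp (ceruloplasmin), Enpp2 (autotaxin), Cacna1e, Slc5a7, Tex15, Tspan5 and Syt1 had 1.31 to 27.8 CPM in members and 51.4 to 144 CPM in other mesenchyme. The Otor limit bears on this side: most other mesenchyme, 2539 of 3016 mutant and 1951 of 2167 WT barcodes, had 2 or more Otor UMIs. Against the remaining 477 mutant and 216 WT barcodes, a comparison added after the data were seen, 91 of 3809 genes (2.39%) were 2-fold higher in members in both libraries and 78 (2.05%) were lower. Of the 252 higher genes 113 could be measured there and 72 still passed 2-fold, and of the 265 lower genes 57 could be measured and 43 passed. Fst, Angpt1 and Igfbp5 were still more than 2-fold higher in members there, with log2 ratios of 2.61 to 3.03 in the library nearer to 0, while that of Mgp was 0.84.

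**Figure D3:**
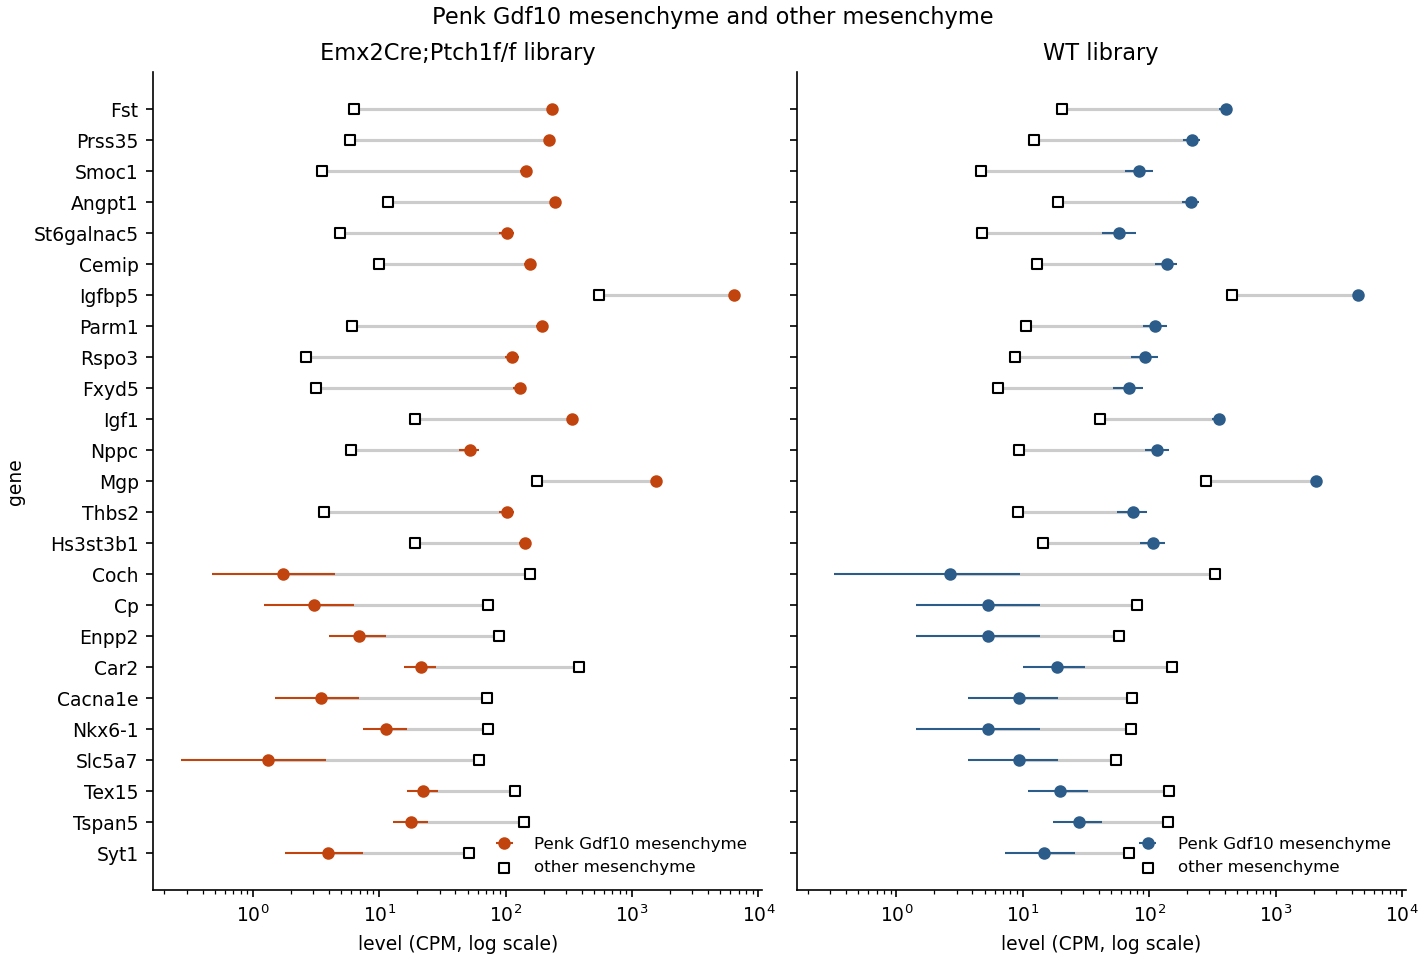
Levels (CPM, log axis) of the 15 genes highest and 10 lowest in members relative to other mesenchyme, as filled circles for members and open squares for other mesenchyme, with exact 95% intervals for members, in the Emx2Cre;Ptch1f/f (left) and WT (right) libraries. Fst had 234 and 404 CPM in mutant and WT members, against 6.30 and 20.3 CPM in other mesenchyme.

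Levels were also taken in 3 classes within other mesenchyme, which may share barcodes. These had at least 2 Otor UMIs, at least 2 of Mme, Cdh6 and Emcn (1841 mutant and 817 WT barcodes), or both Osr1 and Aldh1a2 (150 and 88). No class held the 558 mutant and 366 WT barcodes that met the rule except for 2 or more Otor UMIs. The values therefore do not show whether a trait is particular to members. With those barcodes counted as members, the log2 ratio of Mgp over other mesenchyme was 2.25 in the library nearer to 0. Fst had 234 CPM in mutant and 404 CPM in WT members, against 6.37 and 17.1 CPM in the Otor class, 5.34 and 9.98 CPM in the Mme Cdh6 Emcn class and 0.600 and 3.30 CPM in the Osr1 Aldh1a2 class. Igfbp5 had 6367 and 4504 CPM in members, against 504 and 424 CPM, 691 and 694 CPM, and 976 and 678 CPM in the same classes. Mgp had 1537 and 2076 CPM in members, against 106 and 185 CPM, 122 and 181 CPM, and 7.80 and 13.2 CPM. Cxcl12, a chemokine, had 707 CPM in mutant and 683 CPM in WT members, against 87.1 to 138 CPM over the 3 classes and both libraries. Coch was also low in the Osr1 Aldh1a2 class of the mutant, with 1.74 CPM (0.475 to 4.46) in members, against 3.60 CPM there, and Car2 in that of WT, with 18.5 CPM (10.1 to 31.1) in members, against 27.5 CPM.

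The extracellular matrix lists were above the background of 2.49%. Of 18 measured elastic-fibre genes other than Eln, 5 were 2-fold higher in members in both libraries and 1, Emilin2, was lower. Mfap4, a microfibril-associated protein, had 849 CPM in mutant and 598 CPM in WT members, against 97.7 and 136 CPM in other mesenchyme. Fbln5, which organises elastin, had 168 and 112 CPM, against 13.2 and 32.6 CPM. Fbn1, the main fibrillin, had 220.4 and 187 CPM, against 59.8 and 50 CPM, and the elastin crosslinker Loxl1 had 179 and 143 CPM, against 62.3 and 59.9 CPM. Ltbp1, a latent TGF-beta binding protein, was the fifth. Set against the low-Otor barcodes, 5 of 14 were higher, Fbn1, Fbln5, Mfap4, Ltbp3 and Emilin1.

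Collagens gave 9 higher and 1 lower among 26. Col12a1, which coats collagen fibrils, had 518 CPM in mutant and 491 CPM in WT members, against 39.0 and 97.5 CPM in other mesenchyme. Col1a1 had 148 and 250.1 CPM, against 7.69 and 46.9 CPM. Col8a2, the partner chain of Col8a1, had 122 and 106 CPM, against 9.84 and 31.6 CPM. Col3a1, Col5a1, Col6a1, Col6a2, Col14a1 and Col23a1 were the others above, and the cartilage-type Col9a3 was the one below, at 87.6 and 179.9 CPM, against 322 and 869.7 CPM. Of 20 proteoglycan and matricellular genes, 6 were higher (Aspn, Thbs1, Thbs2, Smoc1, Smoc2 and Mgp) and 1, Tnc, was lower. Aspn, a small leucine-rich proteoglycan, had 172 and 206 CPM in members, against 12.9 and 30.9 CPM. Against the low-Otor barcodes partly different genes passed: 7 of 22 collagens were higher (Col1a1, Col1a2, Col2a1, Col8a2, Col9a1, Col12a1 and Col25a1) and Col4a1 was lower, and 3 of 13 proteoglycan and matricellular genes were higher (Ogn, Aspn and Postn).

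TGF-beta and BMP genes were also above the background. Of 13 ligands and antagonists, 4 were higher in members in both libraries and none was lower: Tgfb2, Tgfb3, Bmp5 and Fst. Tgfb2 had 347 CPM in mutant and 246 CPM in WT members, against 69.9 and 83.4 CPM in other mesenchyme. Of 14 receptors and targets, 3 were higher, the receptor Bmpr1b and the target genes Id1 and Id2. Id2 had 538 and 483 CPM in members, against 75.9 and 109 CPM. Bmp4, at 47.0 and 41.0 CPM in members and 67.2 and 51.5 CPM in other mesenchyme, did not reach 2-fold. Against the low-Otor barcodes the same 4 of 10 ligands and antagonists were higher and Bmp7 was lower, and Id1 and Id2 were higher of 7 receptors and targets.

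WNT genes split by role. Among 8 secreted antagonists, 4 were higher in members (Sfrp1, Sfrp2, Dkk2 and Dkk3) and Notum, with no UMI in members, was lower. Dkk2 had 252 CPM in mutant and 230.2 CPM in WT members, against 25.7 and 40.5 CPM in other mesenchyme. No WNT response gene was higher, and 6 of 10 were lower, where the background was 2.62%: Axin2, Tcf7, Nkd1, Sp5, Apcdd1 and Rnf43. Axin2, a feedback inhibitor, had 11.3 and 25.1 CPM in members, against 70.6 and 95 CPM. Lef1, a transcription factor of the pathway, had 158 and 221 CPM, against 132 and 131 CPM. Against the low-Otor barcodes 3 of 3 antagonists measured were higher, and 1 of 3 response genes was lower. Rspo3 was the single higher gene of 5 ligands and R-spondins, and Wnt2 and Wnt6 were lower.

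Other signals were less uniform. Of 10 IGF genes, 3 were higher (Igf1, Igf2 and Igfbp5), and Igf2 had 293 CPM in mutant and 399.6 CPM in WT members, against 97.0 and 147 CPM in other mesenchyme. Of 9 retinoic acid genes, 3 were higher (the binding protein Crabp1, the receptor Rarb and the reductase Dhrs3) and Aldh1a2, which makes retinoic acid, was lower. Of 10 FGF genes, Fgf18 and Fgfr1 were higher, and Fgfr4 and Spry1 were lower. Of 19 guidance and chemokine genes, 5 were higher, and Slit2 was lower. Cxcl12 had 707 and 683 CPM in members, against 122 and 137 CPM, and Sema3e, a semaphorin, had 74.1 and 87.3 CPM, against 4.76 and 14.4 CPM. Against the low-Otor barcodes 2 of 9 IGF genes were higher (Igf1 and Igfbp5) and Igfbp7 was lower, none of 6 retinoic acid genes was higher and Aldh1a2 was lower, 1 of 2 FGF genes was higher (Fgfr1), and 4 of 11 guidance and chemokine genes were higher (Cxcl12, Sema3a, Efnb1 and Angpt1).

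Of 31 mesenchymal transcription factors, 8 were higher (Foxc2, Foxp1, Foxp2, Twist2, Six2, Eya4, Runx1 and Runx2) and 2 were lower (Meox2 and Sox11). Foxp1, a forkhead factor, had 1087 CPM in mutant and 664 CPM in WT members, against 257 and 249 CPM in other mesenchyme. Eya4, a transcriptional coactivator and deafness gene, had 258 and 173 CPM, against 51.6 and 49.3 CPM. Of 24 factors measured against the low-Otor barcodes, 2 were higher (Eya4 and Runx1) and 3 were lower (Osr1, Nr2f2 and Sox11). Tbx18, one of the general mesenchyme genes, was lower in members, with 142 and 157 CPM, against 470.1 and 411 CPM. Pou3f4, a deafness gene of otic mesenchyme, had 266 and 411 CPM, against 395 and 482 CPM. Tbx18 and Pou3f4 helped to choose other mesenchyme but not the members, which raises their levels in other mesenchyme, so these values are a description.

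Of 3 osteogenic genes measured, Runx2 and Alpl were higher, and Alpl, an alkaline phosphatase, had 78.9 CPM in mutant and 35.7 CPM in WT members, against 5.55 and 4.90 CPM in other mesenchyme. The osteoblast factor Sp7 had 6 and 2 UMIs in members. No osteogenic gene could be measured against the low-Otor barcodes. Of 12 cartilage genes, Sox6 was higher and Col9a3 and Ucma were lower, and Sox9 had 479.6 and 394 CPM, against 205 and 269 CPM. In the comparison with low-Otor barcodes 4 of 7 cartilage genes were higher, Sox9, Col2a1, Matn4 and Col9a1, and none was lower. Of 6 tendon genes, Egr1 was higher and Mkx was lower. Of 7 meningeal fibroblast genes, Cemip was higher and Aldh1a2 and Nnat were lower. Of 8 fibrocyte genes, none was higher and 5 were lower: Coch, Car3, Nkx6-1, Emilin2 and Kcnk2. Only 2 fibrocyte genes could be measured against the low-Otor barcodes, and 0 passed in either direction. There, 2 of 7 meningeal genes were higher (Ogn and Cemip) and 2 were lower (Aldh1a2 and Nnat), and 0 of 2 tendon genes passed.

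Cell state also differed from other mesenchyme. The immediate early genes gave 4 of 17 higher (Fos, Fosb, Egr1 and Klf2) and none lower. Fos had 1992 CPM in mutant and 1430.3 CPM in WT members, against 405 and 698 CPM in other mesenchyme, and against the low-Otor barcodes 1 of 16, Klf2, passed. Such genes can also respond to tissue dissociation, and that was not tested. None of 9 heat shock genes or of 14 hypoxia and glycolysis genes differed by 2-fold in both libraries. In S phase 8 of 20 genes were lower, and in G2 and M phase 6 of 12, with dividing barcodes left out of both classes. Of 5 S phase genes measured against the low-Otor barcodes, 0 passed.

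Of 12 listed genes of opioid precursors, processing and receptors, 3 could be measured against other mesenchyme. In both libraries 0 of these were 2-fold higher in members and 1 was lower. Pdyn and Pnoc, the other opioid precursor genes on the list, had no UMI in members, nor did the convertase Pcsk1 or the receptors Oprm1, Oprd1 and Oprk1. The convertase Pcsk2 had 2 UMIs in mutant and 7 in WT members. Cpe, a carboxypeptidase of peptide processing, had 78.4 CPM in mutant and 91.3 CPM in WT members, against 99.8 and 102 CPM in other mesenchyme.

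Markers of other cell types were low in sum, with a few barcodes as exceptions. Macrophage genes together had 11.3 CPM in mutant and 3.97 CPM in WT members, melanocyte genes 8.71 and 10.6 CPM, glial genes 41.4 and 51.6 CPM, and epithelial genes 95.8 and 59.5 CPM. Pericyte and smooth muscle genes had 169 and 116 CPM, against 149 and 144 CPM, and 262 of the 388 mutant UMIs in members lay in 1 barcode. Neuronal genes had 35.7 CPM in mutant and 441 CPM in WT members, against 142 and 315 CPM, and 191 and 133 of the 333 WT UMIs in members lay in 2 barcodes. Haemoglobin and other erythroid genes had 271 and 136 CPM, against 14356 and 10162 CPM in other mesenchyme, where the 3 leading barcodes held 102844, 77842 and 72568 of 401113 mutant UMIs and 52547, 38248 and 20814 of 163928 WT UMIs. A UMI of these genes was present in similar shares, 84.3% of members and 85.2% of other mesenchyme in the mutant, and 58.9% and 62.4% in WT. Members overlapped with neighbouring mesenchyme: at least 2 of Mme, Cdh6 and Emcn were detected in 130 mutant and 30 WT members, and both Osr1 and Aldh1a2 in 4 and 0.

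Between genotypes few genes of the members differed by 2-fold. Of 4815 genes with at least 100 UMIs over both libraries, 63 (1.31%) were at least 2-fold higher in mutant members and 30 (0.623%) were at least 2-fold lower. The higher genes include the rule genes Penk (log2 ratio 1.83) and Col8a1 (1.01), which helped to choose the members. The median log2 ratio of all measured genes was 0.020. Without the barcode with the most UMIs of each gene, 59 of the 63 and 23 of the 30 still passed. In other mesenchyme 10 of the 63 and 10 of the 30 differed 2-fold the same way.

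Among the 12 highest ratios that met the limits for naming, which leave out genes largely confined to members, 4 belonged to single barcodes. Cma1 and Tpsb2, mast cell proteases, had 205 of 206 and 146 of 146 mutant UMIs in 1 barcode, and the smooth muscle genes Acta2 and Tagln had 138 of 138 and 97 of 100 in 1 barcode. The other 8 remained past 2-fold without their top barcode. Dlk1, a secreted and membrane-bound EGF-like protein of mesenchymal progenitors, had 75.4 CPM (64.6 to 87.5) in 83 mutant barcodes, against 21.2 CPM (12.1 to 34.4) in 9 WT barcodes, a log2 ratio of 1.78. Lrig3, a transmembrane protein, had 46.2 CPM in mutant and 14.6 CPM in WT members, and Aard had 54.0 and 15.9 CPM. Cdh6, a cadherin that also marks neighbouring mesenchyme, had 95 and 31.8 CPM. Without the Otor limit the log2 ratios were smaller, 0.98 for Dlk1, 0.41 for Aard and 0.22 for Cdh6. Mpnd, Pianp, Gfod2 and Grin2a had log2 ratios in other mesenchyme of 3.09, 2.69, 0.96 and 1.07, the same direction as in members.

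Lower in the mutant were 2 small leucine-rich proteoglycan genes. Lum, lumican, had 45.3 CPM (37.0 to 54.9) in mutant members and 202 CPM (172 to 237) in WT members, a log2 ratio of -2.14, where that in other mesenchyme was -0.73. Dcn, decorin, had 74.9 CPM in mutant members, 92 of 172 UMIs in 1 barcode, and 261 CPM in WT members. The log2 ratio of Dcn was -1.78, and -2.59 without the top barcode of each library. Only with 3 rule genes was Dcn higher in the mutant, at 374 CPM against 241 CPM in WT members. In that group 1 barcode held 92 of the 136 mutant UMIs. With 4, 5 and 6 rule genes it had 16.7, 29.5 and 7.75 CPM in mutant members, against 552, 98.4 and 57.4 CPM in WT members. Car3, a carbonic anhydrase of the fibrocyte list, had 41.4 CPM in mutant and 151 CPM in WT members. Cldn11, a claudin, had 42.7 and 112 CPM, and Lifr, the leukaemia inhibitory factor receptor, had 34.4 and 87.3 CPM with a log2 ratio of 0.02 in other mesenchyme. Dpysl3, Cdc42ep3 and Syn3 had 33.1 to 53.1 CPM in mutant and 83.4 to 139 CPM in WT members. Wdr89 and AY036118 were lower in other mesenchyme as well, with log2 ratios there of -1.65 and -1.20. Nefm, a neurofilament gene, had 51 and 47 of its 100 WT UMIs in 2 barcodes, and Loxl2 had 40 of its 55 in 1 barcode, without which its log2 ratio was 0.21.

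**Figure D4:**
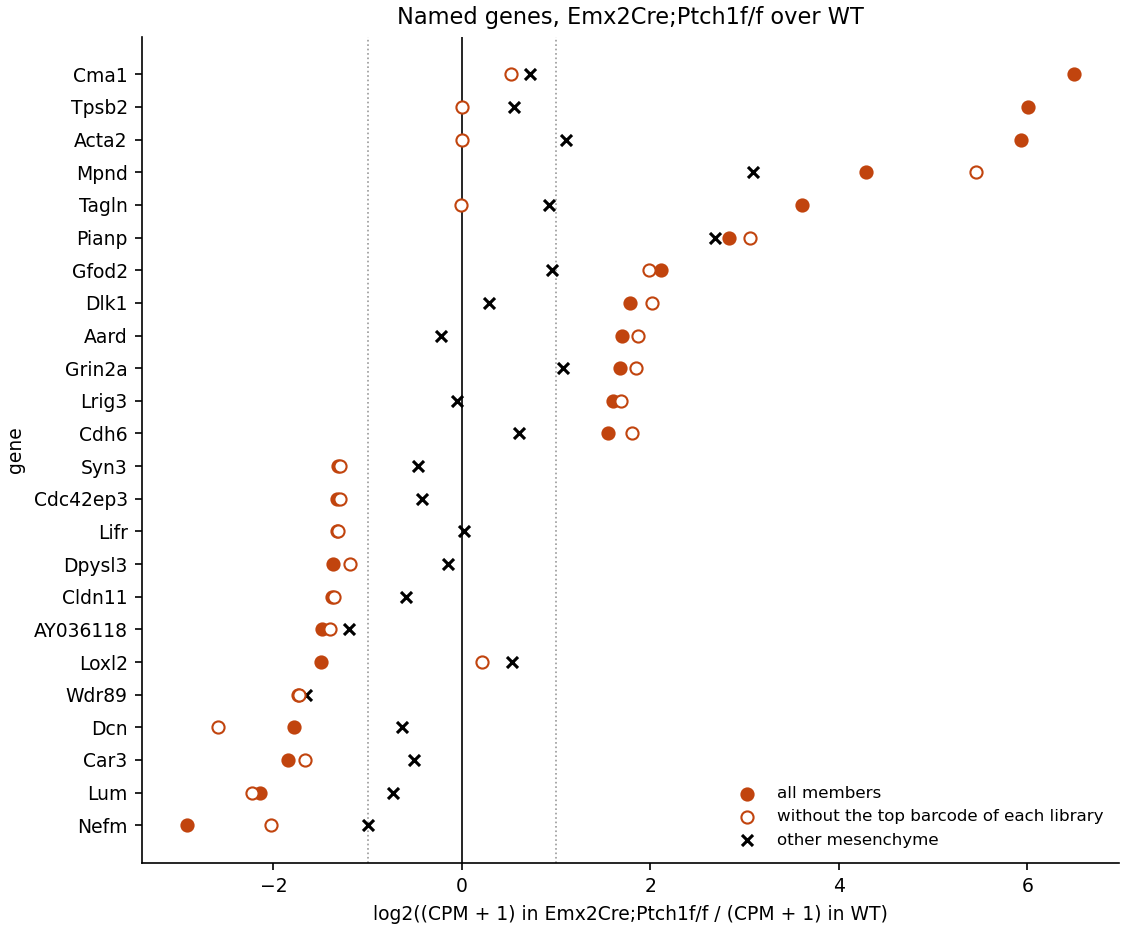
Log2 ratio of mutant over WT CPM for the named genes, as filled circles in members, open circles in members without the barcode of each library that holds most of the gene's UMIs, and crosses in other mesenchyme. Dotted lines mark 2-fold. Dlk1 stood at 1.78 and Lum at -2.14 in members.

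Of 4 secreted WNT antagonists measured, 2 were at least 2-fold higher in mutant members, where the shares over all genes were 1.31% higher and 0.623% lower. The list had a median log2 ratio of 0.65, where that of all genes was 0.020. Sfrp2 had 1032 CPM in mutant and 374 CPM in WT members, where other mesenchyme had 207 and 145 CPM, and Sfrp1 had 186 and 82.0 CPM, where other mesenchyme had 20.9 and 28.3 CPM. Of the matrix lists, 0 of 15 elastic-fibre genes were higher and 1 (Loxl2, -1.49, or 0.21 without its top barcode) was lower, 0 of 25 collagens were higher and 1 (Col9a3) was lower, and 1 of 17 proteoglycan and matricellular genes (Smoc2) was higher and 2 (Lum and Dcn) were lower. Col9a3 had a log2 ratio of -1.03 in members, -0.91 without its top barcode, and -1.43 in other mesenchyme. Efna5, an ephrin, had 144 CPM in mutant and 56.9 CPM in WT members, and was the 1 higher gene of 13 guidance and chemokine genes. Of 26 mesenchymal transcription factors, Ebf2 was higher, with 83.6 and 38.4 CPM. Jund, an AP-1 subunit, had 1063 CPM in mutant and 394 CPM in WT members, and was the 1 higher gene of 17 immediate early genes. Of 3 fibrocyte genes measured none was higher and 2 were lower, and none of the 6 general mesenchyme genes differed 2-fold, with a median log2 ratio of -0.21.

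The floxed gene and the pathway's feedback genes were counted in few UMIs. Ptch1 had 30.5 CPM (23.8 to 38.5) from 70 UMIs in mutant members and 51.6 CPM (36.7 to 70.5) from 39 UMIs in WT members. The counted 3′ tags need not lie in the floxed exons, so they do not check the deletion. Gli1, a transcriptional target, had 25 UMIs in mutant members at 10.9 CPM and 20 UMIs in WT members at 26.5 CPM. Hhip, a secreted-ligand-binding antagonist, had 10.5 CPM (6.70 to 15.6) in mutant and 41.0 CPM (27.9 to 58.2) in WT members, a log2 ratio of -1.87. Over 11 alternative settings the ratio of Ptch1 ranged over -0.76 to -0.0084 and that of Hhip over -2.10 to -1.30, while that of Gli1 turned to 0.082 without the Otor limit. In epithelium the same 3 genes were higher in the mutant, with Ptch1 at 181 CPM against 28.9 CPM in WT, Gli1 at 18.3 against 1.9 CPM and Hhip at 14.1 against 2.7 CPM. Of 8 Hedgehog list genes with at least 100 UMIs none differed 2-fold in members. Boc, a Hedgehog coreceptor, had 78.4 CPM in mutant and 58.2 CPM in WT members, against 11.4 and 12.3 CPM in other mesenchyme.

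Members were not uniform across the number of rule genes detected, which the rule itself fixes, so these values are a description. Igfbp5 had 3094, 5621, 6757 and 8385 CPM in mutant members with 3, 4, 5 and 6 genes, and 3497, 5251, 4417 and 5585 CPM in WT members. Sfrp2 had 385, 935, 1068 and 1437 CPM in mutant members, against 220.4, 365, 408 and 689 CPM in WT members. It was higher in the mutant at each number. Lum had 93.6, 48.1, 37.5 and 24.8 CPM in mutant members, against 212, 227, 221 and 95.6 CPM in WT members, and was lower in the mutant at each number. Fst was at 77.1 to 305 CPM in mutant members and 296 to 551 CPM in WT members. Jund stood at 856 to 1168 CPM in mutant members and 379 to 411 CPM in WT members. Median depth across these groups was 6486 to 7630 UMIs in mutant and 5647 to 7132 UMIs in WT members, with 15 to 101 barcodes each.

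**Figure D5:**
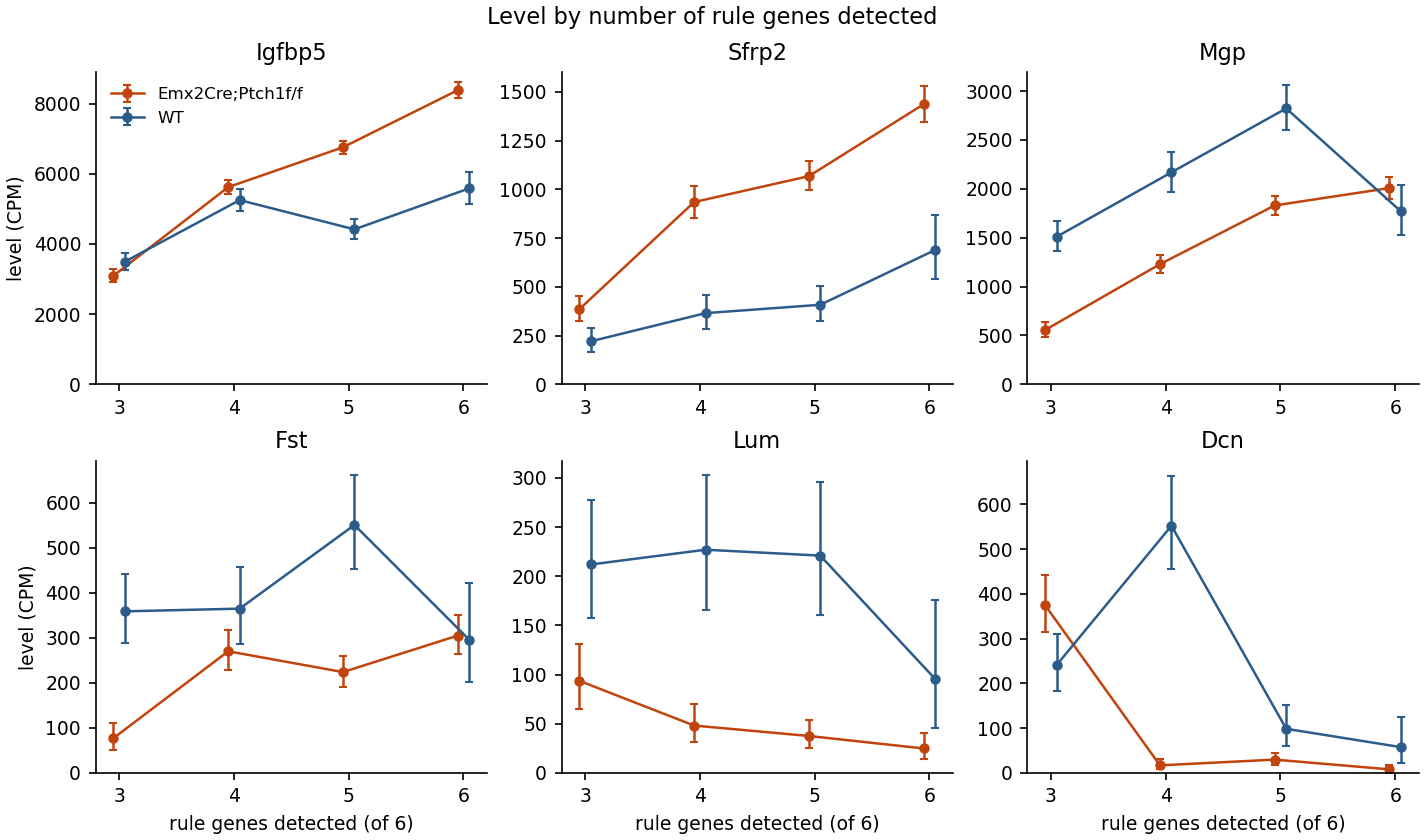
Levels (CPM) of Igfbp5, Sfrp2, Mgp, Fst, Lum and Dcn in members with 3 to 6 rule genes detected, for Emx2Cre;Ptch1f/f and WT, with exact 95% intervals as bars. Sfrp2 was higher in the mutant at each number and Lum was lower.

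Penk and Gdf10 both helped to choose the members. A member without either gene had to reach the minimum through the other rule genes, and cannot have all of them. Splits by these genes are therefore tied to the number of rule genes detected and are given as a description. Members with and without a Penk UMI were compared within each library. The 233 mutant and 50 WT members with one and the 79 mutant and 57 WT members without one differed 2-fold the same way in both libraries at 0 of 992 genes. With a Gdf10 UMI, in 279 mutant and 97 WT members, Dkk2 had 274 and 243 CPM, against 75.4 and 70.9 CPM without one, and Id2 had 579 and 508 CPM, against 203 and 177 CPM. Only 33 mutant and 10 WT members lacked Gdf10. Of 992 genes, 7 (0.706%) were 2-fold higher with Gdf10 in both libraries and 3 (0.302%) were lower, Dcn, Col1a1 and Vim. Whether such genes follow Gdf10 itself or the number of rule genes detected was not tested. Dcn had 31.3 and 167 CPM with Gdf10, against 429 and 1418 CPM without, where 1 barcode held 92 of 108 UMIs in the mutant and 1 held 35 of 80 in WT. Col1a1 had 113 and 202 CPM with Gdf10, against 437 and 851 CPM without, where 1 barcode held 69 of 110 UMIs and 1 held 38 of 48. Vim, an intermediate filament gene, had 449 and 418 CPM, against 1369.9 and 887 CPM, with at most 47 of 345 and 11 of 50 UMIs in 1 barcode.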

How the data were processed

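Single-cell 3′ RNA libraries (10x) were made from 8 pooled cochleae of each genotype, per the labels. The deposited values are whole UMI counts per gene and barcode, made by the authors with Cell Ranger 6.0.0 per the submitters' processing notes, while the file headers name 5.0.1 for the mutant matrix and 6.0.0 for the WT matrix. The labels also name different kit versions. No doublet caller was run.

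Quality limits were a minimum of 1000 UMIs and of 500 genes per barcode and a mitochondrial share of no more than 10%. UMIs were summed over members or a comparison class per library and given as CPM with exact Poisson intervals, and shares with exact (Clopper-Pearson) intervals. Ratios are log2((CPM + 1)/(CPM + 1)), and a gene was counted when 2-fold apart. Genes needed 100 UMIs, over both libraries for genotypes, or in members plus other mesenchyme of each library. Named against other mesenchyme were the 15 highest and 10 lowest by the smaller ratio of the libraries, among genes with at least 50 CPM in the higher class, and between genotypes the 12 highest and 12 lowest with at least 20 CPM in 1 library. Rule and mitochondrial genes, among others, were left out. Gene coordinates are from GENCODE vM21 (GRCm38). The members, lists and rules were chosen with earlier results of these data known. Python 3.11.15, numpy 2.4.6, scipy 1.17.1 and pandas 2.3.3 were used. The summing code was tested on simulated data.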

Additional observations from a re-analysis of the deposited data

How the results depend on the processing

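Each value was recomputed with 1 choice changed at a time, and the cause of a move was not tested except where the setting itself sets it. With at least 2 rule genes the share of passing barcodes was 4.58% in mutant and 2.56% in WT, and that of members plus other mesenchyme 14.4% and 8.41%. At that setting 62 of 6356 genes were lower in the mutant and 147 of 9745 were lower than in other mesenchyme. With at least 4 the shares were 2.80% and 1.12%, and 7.44% and 2.96%. With the rule applied after thinning to 2000 UMIs the mutant shares were 4.44% and 14.9%, and 432 of 9817 genes were lower than in other mesenchyme. A common floor of 3352 UMIs gave a mutant share of 3.98% of passing barcodes. Leaving out all barcodes with over 5 UMIs per 10000 of markers of other lineages, 74 mutant and 14 WT members among them, gave shares of passing barcodes of 4.61% and 2.79%. Without the Otor limit the shares were 9.28% and 7.34%, and 22.4% and 17.9%. There 96 of 9300 genes were lower in the mutant and 116 of 10560 lower than in other mesenchyme. Against low-Otor mesenchyme 91 of 3809 genes were higher and 78 lower. A pseudocount of 5 gave 141 lower than in other mesenchyme. A minimum of 20 UMIs gave 437 higher and 204 lower in the mutant, of 10048 genes measured, and 404 of 13161 lower than in other mesenchyme. A minimum of 500 gave 8 higher and 6 lower in the mutant, of 849 genes. Against other mesenchyme it gave 98 higher and 97 lower, of 5025 genes. Without each gene's top barcode 96 genes were higher in the mutant and 417 lower than in other mesenchyme. Signs turned for the osteogenic list, which rests on 1 gene (median 1.12; -1.56 with 2 rule genes, -0.43 thinned, -0.44 without the Otor limit), Acta2 (0.00), Tagln (-0.21 with 4 rule genes, -0.010 without its top barcode), Nefm (1.01 thinned, 2.17 without mixed barcodes, 2.22 without the top 5% by UMIs), Cma1 (0.00) and Tpsb2 (0.00), Loxl2 (0.22 without mixed barcodes, 0.87 without the Otor limit, 0.21 without its top barcode) and Gli1 (0.082 without the Otor limit). Without the Otor limit the log2 ratio was 0.98 for Dlk1, 0.41 for Aard and 0.22 for Cdh6. Of 881 values of named genes and list medians, 731 moved by less than 0.5, 132 by more and 18 turned. Dropping the Otor limit, low-Otor mesenchyme as comparison, requiring general mesenchyme genes, leaving out top barcodes and reading each rule gene by the other 5 were chosen after seeing the data. No paired analysis was possible because there was 1 library per genotype, and no replicate could be left out. With members of 312 and 107 barcodes, genes of few UMIs cannot be resolved.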
